A study of Danio rerio with 6 samples.

Results

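The respiratory chain of the mitochondrial inner membrane was examined on 6 arrays of whole zebrafish larvae. Members were taken by symbol: every probe set that names 1 gene alone and whose symbol starts with nduf, sdha, sdhb, sdhc, sdhd, uqcr, cox4, cox5, cox6, cox7, cox8 or atp5. This gave 119 probe sets for 102 genes, of 19260 genes measured, and the 15 genes with several probe sets were represented by the one with the highest mean. By symbol, 39 genes belonged to complex I, 5 to complex II, 8 to complex III, 20 to complex IV and 18 to complex V. The other 12, the ndufaf and sdhaf genes, encode factors that assemble complexes I and II and are not part of the finished complexes. The name respiratory chain subunits thus goes beyond these 12, and beyond *atp5if1a* and *atp5if1b*, genes of an inhibitor of the ATP synthase that are counted with complex V.

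The *il7r*-/- group held 3 arrays of larvae homozygous for a small frameshift deletion that CRISPR/Cas9 made in *il7r*, the gene of the interleukin 7 receptor, and the WT group held 3 arrays of larvae of the Tu strain. Both groups were whole larvae at 4 dpf (days post fertilisation), and each array carried RNA pooled from many larvae. The methods describe rearing for embryos in general and do not say whether mutant and WT larvae were reared side by side. The methods describe 1 mutant line, and the sources used here do not say whether the WT larvae were siblings of the mutants. The values are RMA signals on the log2 scale, and every difference below is *il7r*-/- minus WT, so that a difference of -1 means that the signal was halved.

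Electrons from NADH enter the chain at complex I (NADH dehydrogenase) and those from succinate at complex II, which is also an enzyme of the citric acid cycle. Ubiquinone carries them to complex III, and cytochrome c carries them on to complex IV (cytochrome c oxidase), which reduces oxygen. The protons pumped on the way drive complex V, the ATP synthase. Most subunits are encoded in the nucleus and a few core ones in mitochondrial DNA. Photoreceptors, muscle, neurons and ionocytes are rich in mitochondria, so a whole larva gives a mixture of these tissues. In such bulk RNA, fewer cells of a type and less RNA per cell cannot be told apart.

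The respiratory chain genes lay slightly lower in *il7r*-/- larvae as a list, while no single member passed the test. Of the 102 genes, 77 had a difference below 0, 24 had one above 0 and 1 was at 0, and the median was -0.19, against a median of -0.02 and 54.4% below 0 over all 19260 genes. None was called by limma, for which a gene had to change more than 1.5-fold with an adjusted p under 0.05, against 0.182% of all genes called lower and 0.0519% called higher. At an unadjusted p under 0.05, 20 members (19.6%) were lower and 0 were higher, where 8.27% of all genes were lower and 4.08% were higher. In 25 members (24.5%) the highest *il7r*-/- value was under the lowest WT value, and in 1 the order was the opposite, where the shares over all genes were 13.4% and 8.84%. The members were brighter than all genes (median level 5.87 against 4.67). Above the lowest tertile of genes by level, 20.9% of members and 10.1% of genes were lower at an unadjusted p under 0.05 (limma). All *il7r*-/- arrays lay below all WT arrays in 27.5% of those members and 16.6% of those genes. The differences of the 102 members ran between -0.90 (*ndufb2*) and 0.41 (*ndufb4*).

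By complex, the medians were -0.19 for complex I, -0.25 for complex II, -0.05 for complex III, -0.19 for complex IV and -0.26 for complex V. The assembly factors had a median of -0.03. The ATP synthase genes were the most uniform of the larger groups, with 16 of 18 below 0, and all 5 complex II genes were below 0. In complex I 29 of 39, in complex III 5 of 8, in complex IV 15 of 20 and among the assembly factors 7 of 12 lay below 0. Whether the complexes differed from each other was not tested.

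**Figure D1:**
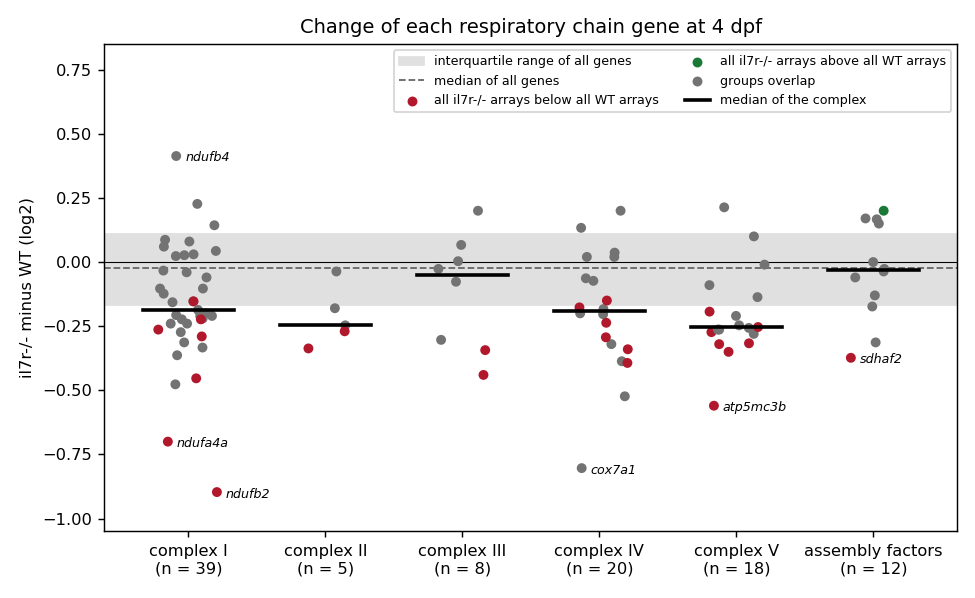
Difference of each of the 102 respiratory chain genes (points, log2, il7r-/- minus WT) by complex, with the median of each complex as a black bar, the interquartile range of all genes as a grey band and the median of all genes as a dashed line. Red points mark the 25 genes in which all il7r-/- arrays lay below all WT arrays, and the medians of complexes I, II, IV and V lie between -0.19 and -0.26, where the band shows the spread of single genes and not that of medians.

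In the member genes the 6 arrays did not split cleanly by genotype, because the median of WT replicate 3 lay near those of the mutants. For each gene the mean of its 6 values was subtracted, and the median over the 102 members was then -0.05, -0.15 and -0.06 on *il7r*-/- arrays 1, 2 and 3, and 0.11, 0.19 and -0.05 on WT arrays 1, 2 and 3. Over all genes these medians stayed between -0.03 and 0.02. WT replicate 3 lay below both other WT arrays in 68 of the 102 members (66.7%), against 38.8% of all genes, and WT replicates 1 and 2 did so in 19 and 12 members. This array also stood apart over all probe sets, with correlations of 0.965 with the other WT arrays, which correlated at 0.977 with each other. Its correlations with the *il7r*-/- arrays were 0.963, 0.962 and 0.962, so it was not closer to the mutants over all probe sets.

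Leaving out the WT array nearest to the mutants in these genes widens the difference by construction, so the values without WT replicate 3 are given as a description. The median was -0.25 and 82 of 102 members were below 0, and 35 members had an unadjusted p under 0.05, all lower, against 10.2% of all genes. In 58 members both remaining WT arrays lay above all *il7r*-/- arrays, against 22.8% of all genes. No member was called in this fit either, and the lowest adjusted p was 0.0627 (*ndufb2*, limma).

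The count of lower members also rested on other single arrays. It was 12 without WT replicate 1, 9 without WT replicate 2, and 13, 6 and 13 without *il7r*-/- replicates 1, 2 and 3. As shares of the members these were 11.8% without WT replicate 1 (6.31% of all genes) and 8.82% without WT replicate 2 (6.39% of all genes). Without *il7r*-/- replicates 1 and 3 they were 12.7% each (6.44% and 5.73% of all genes), and without *il7r*-/- replicate 2 the share was 5.88% (5.47% of all genes). The list median kept its sign in all 6 of these fits.

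**Figure D2:**
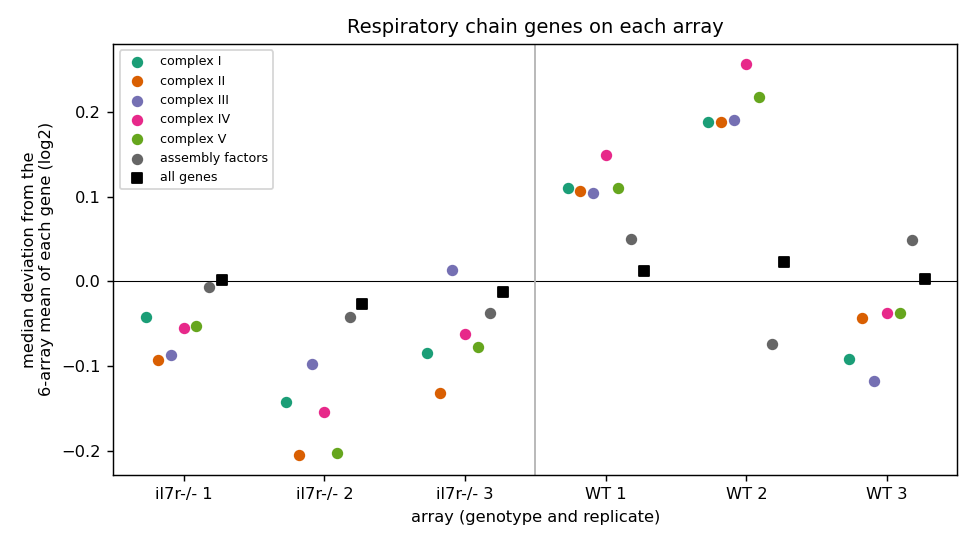
Median over the genes of each complex of the deviation from the 6-array mean of the gene (log2), for each array by genotype and replicate, with all genes as black squares. WT arrays 1 and 2 lie highest in complexes I to V, while WT array 3 lies below 0 in each of these complexes, near the il7r-/- arrays.

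Complex I held the largest difference of the list. *ndufb2* encodes an accessory subunit of the membrane arm, and its values were 5.21, 5.10 and 5.35 in *il7r*-/- larvae, against 6.13, 6.24 and 5.98 in WT larvae. The lowest WT array, replicate 3, lay well above the highest *il7r*-/- array. The difference was -0.90 (standard error 0.13, 95% interval -1.20 to -0.60), a level 0.537-fold that of WT, with an unadjusted p of 0.000237 and an adjusted p of 0.0612 (limma over all 75212 probe sets). It was thus close to the threshold without passing it, and it did pass under 3 of the adjusted alternatives given in the closing section. Leaving out any 1 array moved the difference only between -0.97 and -0.84.

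*ndufs8a* encodes an iron-sulfur core subunit on the path of electrons to ubiquinone. It had values of 7.46, 7.40 and 7.53 in *il7r*-/- larvae and 7.89, 8.02 and 7.84 in WT larvae, and the groups did not overlap. The difference was -0.45 (95% interval -0.71 to -0.20, adjusted p = 0.194, limma), and it had an unadjusted p under 0.05 without any 1 of the 6 arrays. All 7 core subunit genes measured (*ndufs1*, *ndufs3*, *ndufs7*, *ndufs8a*, *ndufs8b*, *ndufv1* and *ndufv2*) had a difference below 0, with a median of -0.24, and *ndufs8b* was dim. In *ndufs1*, *ndufs8a* and *ndufv2* (42.9% of the 7) all *il7r*-/- arrays lay below all WT arrays, against 13.4% of all genes. Among the 32 accessory genes the median was -0.15, 22 were below 0, and in 4 (12.5%) all *il7r*-/- arrays lay below all WT arrays. The accessory genes were taken by symbol and include the *ndufa4* family, and *ndufa4a* is 1 of these 4. This grouping was made after the values were seen, and the difference between core and accessory genes was not tested.

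The 3 genes of the *ndufa4* family, whose human relative was first assigned to complex I and later found in complex IV, had different values. By symbol they are counted here with complex I. *ndufa4a* had 7.45, 7.26 and 7.41 in *il7r*-/- larvae and 8.45, 8.20 and 7.57 in WT larvae, a difference of -0.70 (standard error 0.23, unadjusted p = 0.0198, adjusted p = 0.315, limma). WT replicate 3 lay only just above the mutants here, and without it the difference was -0.95. For *ndufa4b* the difference was -0.33 with overlapping groups (6.63, 6.37 and 6.62 in *il7r*-/-, 6.93, 6.55 and 7.14 in WT). *ndufa4l2a* was dim and had a difference of 0.09 (95% interval -0.29 to 0.46).

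Both genes of the mitochondrial acyl carrier protein, which serves fatty acid synthesis and sits in complex I, were measured. *ndufab1a* had values of 5.16, 5.01 and 4.84 in *il7r*-/- larvae and 5.72, 5.57 and 5.15 in WT larvae, a difference of -0.48 (unadjusted p = 0.0335, adjusted p = 0.368, limma). The groups overlapped by 1 array, since WT replicate 3 lay just under *il7r*-/- replicate 1. A second, dimmer *ndufab1a* probe set gave -0.32 with separate groups. The paralog *ndufab1b* had a difference of 0.23 (95% interval -0.13 to 0.58). The difference between the paralogs was not tested. *ndufb4*, an accessory subunit gene with the highest difference of the list, had dim values of 3.28, 3.04 and 3.43 in *il7r*-/- larvae and 3.15, 2.99 and 2.37 in WT larvae. Its difference of 0.41 (adjusted p = 0.530, limma) came with WT replicate 3 as the lowest array. *ndufa3*, another accessory subunit gene, had a difference of -0.24 with overlapping groups.

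In complex II, the catalytic flavoprotein gene *sdha* had values of 6.59, 6.51 and 6.54 in *il7r*-/- larvae and 6.95, 6.82 and 6.88 in WT larvae. The groups were separate and tight, with a difference of -0.34 (95% interval -0.58 to -0.09, unadjusted p = 0.0137, adjusted p = 0.278, limma). A second, dimmer *sdha* probe set gave -0.84 with separate groups as well (3.80, 3.53 and 3.48 in *il7r*-/-, 4.43, 4.87 and 4.03 in WT).

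The membrane anchor gene *sdhdb* had values of 5.32, 5.29 and 5.31 in *il7r*-/- larvae and 5.52, 5.63 and 5.58 in WT larvae, a difference of -0.27 (unadjusted p = 0.0305, adjusted p = 0.358, limma). Here too the groups did not overlap. *sdhb*, the iron-sulfur subunit gene, had a difference of -0.25 with *il7r*-/- replicate 3 above WT replicate 3. The other anchor genes, *sdhc* and the dim *sdhda*, had -0.18 and -0.04.

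The assembly factor gene *sdhaf2*, whose product attaches the flavin to the *sdha* protein, had even values within each group. They were 6.44, 6.38 and 6.48 in *il7r*-/- larvae and 6.80, 6.81 and 6.81 in WT larvae. The difference was -0.37 (95% interval -0.61 to -0.14, unadjusted p = 0.00729, adjusted p = 0.229, limma), and leaving out any 1 array kept it between -0.40 and -0.35. It was the 1 assembly factor of 12 with an unadjusted p under 0.05 (limma). That is 8.33% of them, beside 8.27% of all genes lower at this p, so the count does not set the assembly factors apart. *sdhaf4*, which helps to join the soluble subunits of complex II, had -0.31 with overlapping groups. At the other end, the complex I assembly factor genes *ndufaf4* and *ndufaf2* had 0.20 and 0.17. *ndufaf4* was the only member with all *il7r*-/- arrays (5.27, 5.5 and 5.25) above all WT arrays (5.22, 5.08 and 5.12), by a margin small against its 95% interval of -0.08 to 0.48.

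**Figure D3:**
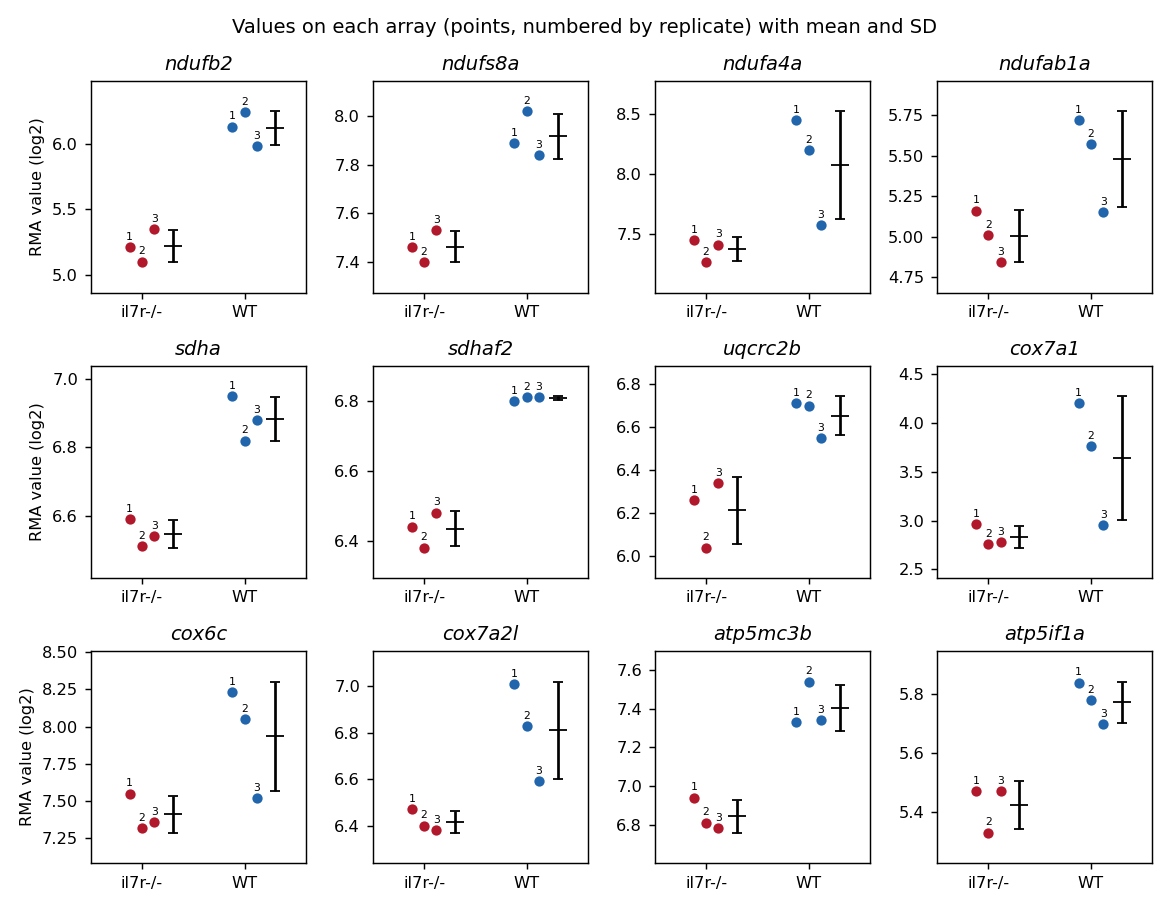
RMA values (log2) of 12 respiratory chain genes on each array, il7r-/- left of WT, with points numbered by replicate and the mean and SD (n = 3 each) at the side of each group, where each panel has its own axis. In ndufb2, ndufs8a, sdha, sdhaf2, uqcrc2b, atp5mc3b and atp5if1a WT replicate 3 lies with the other WT arrays, while in ndufa4a, ndufab1a, cox7a1 and cox6c it lies near the il7r-/- arrays.

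Complex III had the median nearest to 0 of the complexes. By the probe sets used, *uqcrc1* and *uqcrc2b* of its 3 core protein genes had separate groups while *uqcrc2a* did not. Over all genes, 13.4% were separate in this direction. *uqcrc2b* had values of 6.26, 6.04 and 6.34 in *il7r*-/- larvae and 6.71, 6.70 and 6.55 in WT larvae. *uqcrc1*, the partner core subunit gene, had 6.54, 6.54 and 6.59 in *il7r*-/- larvae and 6.86, 7.06 and 6.78 in WT larvae. In both genes all *il7r*-/- arrays lay below all WT arrays, with differences of -0.44 (unadjusted p = 0.0105, adjusted p = 0.257, limma) and -0.34 (unadjusted p = 0.0223, adjusted p = 0.327, limma). The probe sets of *uqcrc1* disagreed, since the 2 others gave 0.11 and -0.71, both with overlapping groups. The probe set with 0.11 was almost as bright as the one used (mean 6.655 against 6.728), so the separation in *uqcrc1* depends on the probe set taken. *uqcrc2a*, the paralog of *uqcrc2b*, had -0.03, and *uqcrfs1*, the gene of the Rieske iron-sulfur protein, had -0.08. *uqcrb* had 0.20 and the hinge protein gene *uqcrh* had 0.07. In *uqcrb* WT replicate 3 was the lowest array at 4.63, and without it the difference was -0.03. The complex III median was -0.19 without WT replicate 3 and 0.01 without WT replicate 2, so its direction was not settled.

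In complex IV, the largest differences were in genes in which WT replicate 3 was close to the mutants. *cox7a1*, whose mammalian relative is the heart and muscle form of its subunit, had values of 2.96, 2.76 and 2.78 in *il7r*-/- larvae and 4.2, 3.76 and 2.95 in WT larvae. WT replicates 1 and 2 lay far above and replicate 3 among the mutants. The difference was -0.80 with a wide 95% interval of -1.53 to -0.08 (adjusted p = 0.373, limma). It was -1.15 without WT replicate 3 and as small as -0.52 without another array, and the gene is dim, so its size is uncertain.

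*cox6c*, a small membrane subunit gene, had 7.55, 7.32 and 7.36 in *il7r*-/- larvae and 8.23, 8.05 and 7.52 in WT larvae. Again only WT replicate 3 reached the mutants, and the difference was -0.52 (unadjusted p = 0.0355, adjusted p = 0.375, limma), or -0.73 without that array. *cox7a2l*, whose mammalian product links complexes III and IV into supercomplexes, had 6.47, 6.40 and 6.38 in *il7r*-/- larvae and 7.01, 6.83 and 6.59 in WT larvae. Its groups did not overlap, with a difference of -0.39 (unadjusted p = 0.0246, adjusted p = 0.337, limma). *cox8a* had a difference of -0.34 (unadjusted p = 0.0296, adjusted p = 0.357, limma), and its groups did not overlap either (6.70, 6.53 and 6.79 in *il7r*-/-, 6.98, 7.14 and 6.92 in WT).

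Several complex IV subunits come in isoforms, and their differences are given family by family. For subunit 4, *cox4i2* had a difference of -0.39 (unadjusted p = 0.0406, adjusted p = 0.393, limma) with *il7r*-/- replicate 1 (5.79) above WT replicate 3 (5.75). *cox4i1* had -0.32 (95% interval -0.69 to 0.05) and the dim *cox4i1l* had 0.02. For subunit 5A the differences were -0.20 in *cox5ab* and -0.06 in *cox5aa*. For subunit 5B they were -0.24 in *cox5ba*, where the groups did not overlap, and -0.07 in *cox5b2*. A second, dimmer *cox5ba* probe set gave -0.03 with overlapping groups. In *cox5bb* the difference was 0.13 with an interval of -0.82 to 1.09. WT replicate 3 had 4.44 for *cox5bb*, far under the other WT arrays (5.94 and 5.84) and the mutants (5.59, 5.72 and 5.31), and without it the difference was -0.35.

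For subunit 6A, *cox6a1* had -0.20 and *cox6a2*, the muscle form in mammals, was dim with 0.02. For subunit 6B, *cox6b2* had -0.18 and *cox6b1* had 0.04. For subunit 7A, *cox7a2b* had -0.18 with separate groups and *cox7a2a* had 0.20 (95% interval -0.09 to 0.49). No difference between isoforms was tested.

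In complex V, the c-ring gene *atp5mc3b* had the largest difference. Its values were 6.94, 6.81 and 6.78 in *il7r*-/- larvae and 7.33, 7.54 and 7.34 in WT larvae. The groups were well apart, WT replicate 3 included, and the difference was -0.56 (standard error 0.12, 95% interval -0.84 to -0.28, unadjusted p = 0.00217, adjusted p = 0.151, limma). It stayed between -0.61 and -0.49 without any 1 array, and a second, dimmer probe set gave -0.31. The c-ring is the rotor that the proton flow turns, and in mammals several genes encode the same mature protein of this ring. *atp5mc3a* had a difference of -0.25 with separate groups (6.86, 6.79 and 6.98 in *il7r*-/-, 7.11, 7.14 and 7.14 in WT). *atp5mc1* had -0.26 with WT replicate 3 (6.51) below all mutants, and -0.53 without that array.

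Both genes of the inhibitor protein IF1, which stops the ATP synthase from running backwards, had separate groups. *atp5if1a* had 5.47, 5.33 and 5.47 in *il7r*-/- larvae and 5.84, 5.78 and 5.70 in WT larvae, a difference of -0.35 (unadjusted p = 0.0145, adjusted p = 0.284, limma). *atp5if1b* had 5.39, 5.32 and 5.29 in *il7r*-/- larvae and 5.54, 5.62 and 5.66 in WT larvae, a difference of -0.27 (unadjusted p = 0.0328, adjusted p = 0.365, limma). The stator gene *atp5pb* and the small subunit gene *atp5mj* each had -0.32 with separate groups (adjusted p = 0.379 and 0.388, limma). The catalytic-head gene *atp5fa1* (alpha subunit) also had all *il7r*-/- arrays (8.77, 8.65 and 8.77) below all WT arrays (8.89, 8.99 and 8.89), and its difference was -0.19 (95% interval -0.44 to 0.05). Only *atp5md* (0.21) and the delta subunit gene *atp5f1d* (0.10) had a difference above 0, both with overlapping groups.

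The members that kept an unadjusted p under 0.05 without any 1 of the 6 arrays were *ndufb2*, *ndufs8a*, *sdha*, *sdhaf2*, *uqcrc2b* and *atp5mc3b*. These 6 members are 5.88% of the list, where 3.84% of all genes were lower in the same way. Subunits of complexes I, II, III and V and the assembly factor gene *sdhaf2* were among them, and no complex IV gene was. With a share this near to that of all genes, the absence of complex IV genes marks no difference between the complexes. In each of the 6 all *il7r*-/- arrays lay below all WT arrays, which this way of choosing genes favours.

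**Figure D4:**
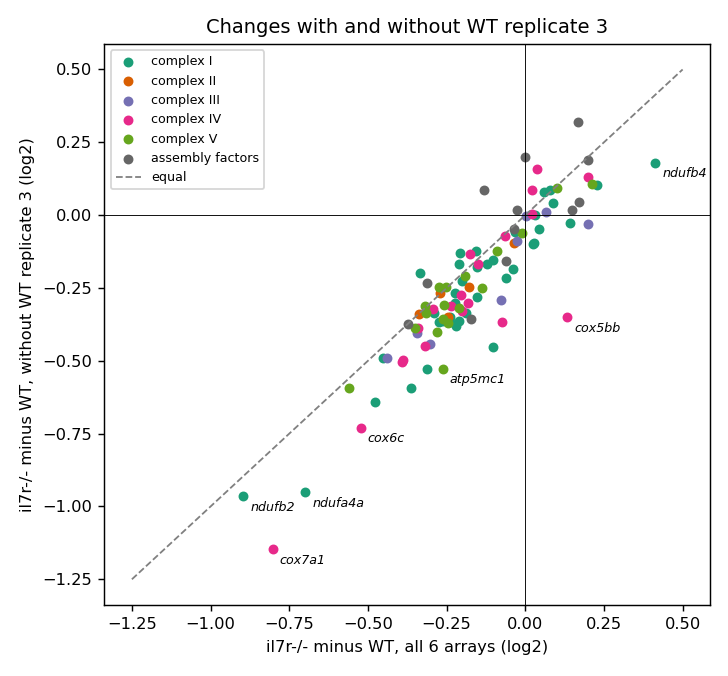
Difference of each respiratory chain gene (log2, il7r-/- minus WT) with all 6 arrays on the x axis and without WT replicate 3 on the y axis, coloured by complex, with the line of equal values. Most points lie below the line, such as cox7a1 (-0.80 and -1.15), ndufa4a (-0.70 and -0.95) and cox5bb (0.13 and -0.35), while ndufb2 lies near it (-0.90 and -0.97).

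Other mitochondrial gene lists also had medians below 0, between -0.18 and -0.02 beside -0.19 for the respiratory chain, and no gene of theirs was called. Subunits and carriers whose symbols the rule does not take had a median of -0.18, with 10 of 10 below 0. This list also held *etfa*, *etfb*, *etfdh*, *dhodh*, *higd1a* and *higd2a*. *cycsb*, a cytochrome c gene, had a difference of -0.50 (adjusted p = 0.302, limma), *cyc1*, the cytochrome c1 gene of complex III, -0.21, and *slc25a4*, an ADP/ATP carrier gene, -0.20. Genes of mitochondrial protein import, taken by symbols that start with timm or tomm, had a median of -0.17 (21 of 25 below 0). This symbol rule also took *timmdc1* (-0.15), which is counted with the assembly factors with other symbols as well. All *il7r*-/- arrays lay below all WT arrays in 13 genes of the import list (52%), beside 24.5% of the respiratory chain genes and 13.4% of all genes. At an unadjusted p under 0.05 (limma), 9 import genes (36%) were lower, beside 19.6% of the respiratory chain genes and 8.27% of all genes. By these 2 shares the import list was thus above the respiratory chain. By the share of genes below 0, the import list (84%), the other subunits and carriers (100%) and the other assembly factors (82.9%) were above its 75.5%. The remaining mitochondrial lists were below it. The count at this p was 8 of 67 mitochondrial ribosomal protein genes, 4 of 35 other assembly factors, 3 of 21 citric acid cycle and pyruvate dehydrogenase genes, 2 of 10 other subunits and carriers, 2 of 21 regulators and 1 of 13 coenzyme Q genes. In the import list *timm17a*, of the inner membrane translocase, had -0.60 (adjusted p = 0.173, limma), and *tomm20b*, an import receptor gene of the outer membrane, had -0.14.

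Assembly factors with other symbols had a median of -0.14 (29 of 35 below 0), and *uqcc1*, which acts in the assembly of complex III, had -0.50 (adjusted p = 0.163, limma). The list of the citric acid cycle and pyruvate dehydrogenase, which also held pyruvate carboxylase and pyruvate carrier genes, had -0.12 (14 of 21 below 0). Within it *pcxb*, a pyruvate carboxylase gene, had -0.37 and *idh2* had -0.24. Mitochondrial ribosomal protein genes had -0.08 (46 of 67 below 0), with -0.56 in *mrpl45* and 0.15 in *mrps34*. Coenzyme Q synthesis genes had -0.02 (7 of 13 below 0), with -0.39 in *coq10b* and 0.16 in *coq8aa*. The 13 protein genes of mitochondrial DNA were not analysed here, as none has a probe set that names it alone.

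Regulators of mitochondrial genes had a median of -0.07 over 21 genes, with differences of both signs. *ppargc1b*, a coactivator gene of mitochondrial biogenesis, had 6.76, 6.66 and 6.41 in *il7r*-/- larvae and 7.05, 7.06 and 7.33 in WT larvae, a difference of -0.54 (adjusted p = 0.239, limma). *esrra*, a nuclear receptor gene of the same programme, had 5.48, 5.32 and 5.49 in *il7r*-/- larvae and 5.78, 6.21 and 5.73 in WT larvae, a difference of -0.48 (adjusted p = 0.319, limma). Its relatives had values of both signs, with 0.42 in *esrrb* (adjusted p = 0.259, limma), 0.21 in *esrrga* and -0.08 in *esrrgb*. The groups overlapped in *esrrgb* and in *ppargc1a* (-0.14), and not in *ppargc1b*, *esrra*, *esrrb* and *esrrga*.

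Of the tissue markers, those of photoreceptors and lens had the medians farthest from 0. All 18 photoreceptor markers were below 0, with a median of -0.98, and *rbp3*, the gene of a retinoid-binding protein, fell by 1.95 (adjusted p = 0.0335, limma). That call was lost with the replicate block (adjusted p = 0.122, limma), by the methods' test after adjustment (0.191) and without any 1 of the arrays except WT replicate 3 (0.111 to 0.133). On a linear scale their summed level was 1240 to 1780 in *il7r*-/- arrays and 2830 to 4550 in WT arrays, and WT replicate 3 had the 2830. All 13 lens markers were below 0 with a median of -0.98, and their sum was 1040 to 1710 in *il7r*-/- arrays and 2410 to 3670 in WT arrays, lowest of the WT arrays again in replicate 3. The summed level of the 102 respiratory chain genes was 7430 to 8160 in *il7r*-/- arrays and 8180 to 9870 in WT arrays, with the 8180 in WT replicate 3.

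Muscle markers lay on the other side of 0. Of 17 fast skeletal muscle markers 15 were above 0 with a median of 0.18 (sum 12600 to 13700 in *il7r*-/- arrays and 10500 to 12800 in WT arrays). The 10500 was WT replicate 3, while WT replicates 1 and 2 had 12400 and 12800, so the ranges overlapped. The slow muscle markers had a median of 0.15 (6 of 7 above 0) and the heart markers 0.21 (6 of 8 above 0). WT replicate 3 was lowest in the slow muscle sum as well, with 336 against 402 and 396 in WT replicates 1 and 2. Ionocyte markers had -0.20 (9 of 10 below 0), with a sum of 426 to 485 in *il7r*-/- arrays and 512 to 623 in WT arrays. Neuron markers had -0.01 (6 of 12 below 0), with a sum of 3500 to 3850 in *il7r*-/- arrays and 3890 to 4050 in WT arrays. Such linear sums weigh bright genes most. The brightest neuron marker, *vamp2*, had -0.33, while 6 of the 12 were above 0, so the sums show no general fall of neuron markers. Liver markers had -0.25 (10 of 10 below 0) and red blood cell markers 0.21 (8 of 9 above 0). No marker of photoreceptors lay in the lowest tertile of genes by level, as did 2 of lens, 1 of fast muscle, 2 of slow muscle, 1 of neurons, 4 each of liver, ionocytes and red blood cells, and 7 of the 8 heart markers. The part of these tissues in the respiratory chain values was not tested.

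**Figure D5:**
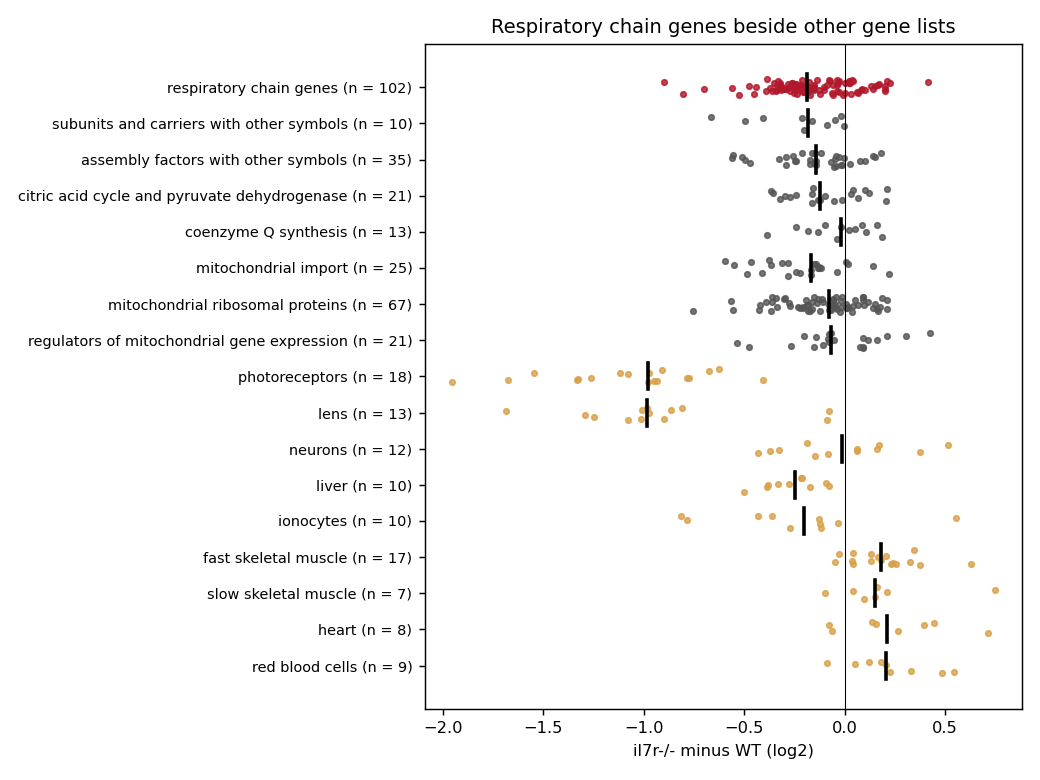
Difference of each gene (points, log2, il7r-/- minus WT) with the median of each list as a black bar, for the respiratory chain genes (red), other mitochondrial lists (grey) and tissue markers (ochre). The respiratory chain median of -0.19 lies beside those of the import list (-0.17) and the list of subunits and carriers with other symbols (-0.18). Photoreceptor and lens markers have medians of -0.98 and fast muscle markers one of 0.18.

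In the GRCz12tu assembly, 7 members lie on the chromosome that carries *il7r*, and their median was -0.15 with differences between -0.34 and 0.03. *il7r* itself was near the array's background, with values of 1.42, 1.64 and 1.71 in *il7r*-/- larvae and 1.40, 1.80 and 1.76 in WT larvae. Where its probes lie relative to the deletion is not given in the sources used here, so these values check no label.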

How the data were processed

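RNA of whole larvae was hybridized to the Affymetrix Zebrafish Gene ST array, and the authors analysed it in Expression Console. RMA, named in the submitters' processing notes, removes background, brings the arrays to a common distribution and combines the probes of a set. The deposited values were read as log2 from their range, since no source names the base. They were used as deposited, for 75212 probe sets, of which 20806 name 1 gene, 53551 none and 855 several. Symbols came from the platform annotation, and all 102 members had the same symbol in RefSeq by gene identifier.

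Differences were tested in R 4.3.3 with limma 3.58.1 (lmFit and eBayes, default settings, two-sided), with Benjamini-Hochberg adjustment over all 75212 probe sets, and calls needed an adjusted p under 0.05 with more than a 1.5-fold change. The fit was tested on simulated data. A gene was called dim if its mean was under 3.9, where the lowest tertile of genes ends. The methods describe batches of larvae as biological replicates. The limma p-values set a difference against the spread between the arrays of a group, which limma draws toward that of all probe sets. They do not cover differences between mutant lines, since the methods describe a single line. The number of arrays, 3 against 3, limits the precision.

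The members and lists were chosen with earlier results of these data known. Named were, for each complex and the assembly factors, the gene with the highest mean and those with the 2 lowest and 2 highest differences, the isoform families of complexes IV and V and of *ndufa4* (42 genes), and for each other mitochondrial list its gene with the highest mean. The gene with the lowest unadjusted p (limma) of each of these lists was named too. These were *cycsb*, *uqcc1*, *pcxb*, *ppargc1b*, *coq10b*, *mrpl45* and *timm17a*, so they are extremes of their lists and not typical members. The remaining genes were named after their values were seen. As alternatives, each array was left out in turn, arrays were weighted, replicate numbers were blocked, and probe sets of 1 gene were averaged. Quantile normalization or centring on the median was added, dim probe sets were dropped, and adjustment was restricted to probe sets with 1 gene. The prior was given a trend and made robust, the fold threshold was dropped, and the methods' own test was run, adjusted and unadjusted. No sequences of the members were used here.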

Additional observations from a re-analysis of the deposited data

How the results depend on the processing

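The median of the 102 genes stayed below 0 under all alternatives run, and lay between -0.25 and -0.13 when single arrays were left out. No member was called under most of them, and *ndufb2* was the 1 member called lower by the methods' test without adjustment, with the intensity trend and robust prior (adjusted p = 0.0274), without the lowest tertile of probe sets (0.0387) and with array weights (0.0437, all from limma), where the difference was -0.90 or, with array weights, -0.93. Its adjusted p ran up to 0.238 when single arrays were left out, and those fits hold fewer arrays. The shares of all genes called under the settings that called *ndufb2* were not determined, so these calls have no background beside them. Leaving out single arrays moved the median of complex III between -0.189 and 0.013, that of complex IV between -0.318 and -0.13 and that of the assembly factors between -0.089 and 0.026, so that the signs for complex III and the assembly factors are not settled. Differences near 0 turned their sign as well: *cox5b2* had 0.022 with the mean of its probe sets and -0.367 to 0.078 over the left-out arrays, and *cox5bb* had -0.068 with array weights and -0.35 to 0.40. *ndufb7* had 0.017 with the mean of its probe sets. Over the left-out arrays *cox4i1l* ran between -0.018 and 0.072, *cox6a2* between -0.085 and 0.085, *cox6b1* between -0.063 and 0.157, *uqcrb* between -0.032 and 0.343, *ndufa4l2a* between -0.01 and 0.23, *ndufa12* between -0.28 and 0.02, *sdhda* between -0.177 and 0.073, *uqcrc2a* between -0.088 and 0.017, *uqcrfs1* between -0.29 and 0.135 and *esrrgb* between -0.223 and 0.072. *rbp3* was called when WT replicate 3 was left out and lost its call when any of the other 5 arrays was, under the replicate block and by the methods' test after adjustment.

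The correlations of same-numbered deviations across probe sets were 0.05, 0.01 and 0.08, and those of differently numbered ones ran from -0.07 to 0.03. With 3 arrays in each group these values cannot decide whether the replicate numbers pair the arrays. With the replicate block the member median was -0.19 and no member was called (lowest adjusted p = 0.213, *ndufb2*, limma). In that fit 13 in place of 20 members had an unadjusted p under 0.05. The share of all genes in the same fit was not determined, so the lower count is not read as a result about the members. Dim members such as *cox7a1* and *ndufb4* lie near the array's background, which limits what their differences can show.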

Other observations

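Probe sets that name several genes were left out of the counts above. One of them names the ATP synthase beta subunit gene under both of its spellings (*atp5b* and *ATP5B*), and its values were 8.14, 8.04 and 8.10 in *il7r*-/- larvae and 8.24, 8.36 and 8.17 in WT larvae, a difference of -0.16 with all *il7r*-/- arrays below all WT arrays. The probe set of *ndufv3*, a complex I gene listed with its symbol repeated, had a difference of -0.27 with overlapping groups.

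Probe sets other than those used above gave other values for some genes. For *ndufa12*, a complex I accessory gene, the probe set used gave -0.15 and the dimmer one -0.41, with values of 4.88, 4.76 and 4.97 in *il7r*-/- larvae and 5.0, 5.55 and 5.30 in WT larvae. For *ndufb7*, another accessory gene, the probe set used gave -0.15 and the dimmer one 0.19. For *atp5pb* they gave -0.32 and -0.10.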
